A study of Mus musculus with 2 samples.

Results

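The immunoglobulin constant genes expressed in mouse lung were examined in 1 single-cell RNA sequencing library labelled GFI1 KO and 1 labelled WT. The members were the 8 listed genes Igkc, Iglc1, Iglc2, Iglc3, Ighm, Ighd, Igha and Jchain, out of 33696 genes in the deposited matrices. They were counted as unique molecular identifiers (UMIs, each standing for 1 captured RNA molecule) in B cells and, apart from these, in all other cells. A cell was called a B cell where at least 3 of the 6 genes Cd79a, Cd79b, Ms4a1, Ebf1, Bank1 and Pax5 had a UMI. This gave 1059 B cells of 10495 cells under the KO label and 3624 of 19342 under the WT label.

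Both libraries held live cells sorted from enzymatically dissociated lungs of adult mice and were made with the 10x Genomics 3′ chemistry, which reads the end of each transcript. The KO label stands for mice that lack GFI1, a transcriptional repressor of blood cell development, in every cell from the germline on, and the WT label for mice with intact Gfi1. Mice were on the C57BL6/J background, and no treatment is named beyond the word ctrl in both library names. The study's design names 2 samples per genotype, of which 1 per label was analysed here, and the number of mice behind each library is not given in the sources used here. With 1 library per label there is no test and no spread between mice, and genotype, mouse and library cannot be told apart. Intervals are 95% intervals and cover counting error only.

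The libraries held 10700 and 19515 deposited cells with 116825535 and 162599284 gene UMIs under the KO and WT labels, and the median depth of the cells kept was 11076 and 6217 UMIs. B cells were closer in depth, with medians of 4159 and 4600 UMIs. The Gfi1 transcript did not check the labels, since reads from its end may lie outside the deleted part. Scaled to 1000000 summed UMIs of the class of cells (CPM), its level was 12.5 in KO-labelled and 5.28 in WT-labelled B cells. The 2 libraries shared 74 cell barcodes, of which 10 and 11 belonged to B cells under the KO and WT labels. Markers of other cells differed between the B cells as well, with S100a8, a neutrophil gene, at 737 CPM in the KO-labelled and 194 CPM in the WT-labelled ones, and Cd3e, a T cell gene, with a UMI in 0.661% and 3.06% of B cells. The endothelial gene Cldn5 had a UMI in 0.378% and 3.64% of B cells, and the alveolar macrophage gene Krt79 in 2.55% and 4.25%.

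Genes and an antibody tag that the rule did not use set these cells apart as B cells. Fcmr, the receptor for IgM, had a UMI in 74.8% of KO-labelled and 75.4% of WT-labelled B cells, against 0.276% and 0.433% of the other cells. Pou2af1, a coactivator of immunoglobulin genes, had a UMI in 71.4% and 74.9% of B cells and in 0.435% and 1.02% of the others. The B220 antibody tag had a median of 259 and 149 UMIs on B cells and of 3 and 6 UMIs on other cells. At least 2 markers of another cell class (cells called mixed lineage) were also found in 153 KO-labelled (14.5%) and 643 WT-labelled B cells (17.7%). Few cells lay near the limit of the rule, with 13 KO-labelled and 43 WT-labelled B cells at just 3 markers and 80 and 134 other cells at 2, while 710 and 2558 B cells had all 6. B cells made up 10.1% of KO-labelled cells (9.52 to 10.7) and 18.7% of WT-labelled cells (18.2 to 19.3), a difference of -8.65 percentage points (-9.44 to -7.84).

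An antibody is built from paired heavy and light chains, and each chain joins a variable region, which binds the antigen, to a constant region, which the genes described here encode. A B cell normally makes 1 kind of light chain, kappa from Igkc or lambda from the Iglc genes, and in mice kappa is by far the more common. Naive B cells splice the same long heavy-chain transcript to Ighm for IgM or to Ighd for IgD, and after activation they may switch by DNA recombination to IgG, IgE or IgA, whose constant genes are the Ighg genes, Ighe and Igha. Plasma cells secrete antibody at high rate, and Jchain encodes the joining chain that links IgM and IgA into the polymers carried across mucosal surfaces such as the airway lining.

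The lambda genes resemble each other, so the sequence near the transcript's end decides whether reads can be told apart. The last 120 coding bases before the stop codon are shown for the 3 lambda members, from GENCODE transcripts on the GRCm38 build, with capitals at the 39 positions that are not the same in all 3 genes. Iglc1 (ENSMUSG00000105906) lies at chr16:19061755-19061874, Iglc2 (ENSMUSG00000076937) at chr16:19198539-19198658 and Iglc3 (ENSMUSG00000105547) at chr16:19065368-19065487, all on the minus strand and in the coding part of the gene's constant exon. The deposited counts use a later build, GRCm39, so these positions belong to the printed sequences only.
Iglc1: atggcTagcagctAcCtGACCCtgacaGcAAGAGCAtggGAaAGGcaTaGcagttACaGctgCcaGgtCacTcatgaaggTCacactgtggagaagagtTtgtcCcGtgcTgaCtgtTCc
Iglc2: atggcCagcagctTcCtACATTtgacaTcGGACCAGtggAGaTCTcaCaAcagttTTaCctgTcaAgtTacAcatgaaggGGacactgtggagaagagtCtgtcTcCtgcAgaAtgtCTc
Iglc3: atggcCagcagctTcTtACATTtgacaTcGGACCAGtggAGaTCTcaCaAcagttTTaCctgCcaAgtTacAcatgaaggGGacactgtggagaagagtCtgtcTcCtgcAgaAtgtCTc
Over the whole constant coding sequence, Iglc2 and Iglc3 differed at 12 of 315 aligned positions (96.2% identical), and 2 of these lay in the stretch shown. Iglc1 differed from Iglc2 at 85 of 319 positions and from Iglc3 at 82 of 318, with 38 in the stretch for either. After the stop codon, nearer the transcript's end, Iglc2 and Iglc3 differed at 15 of 140 aligned positions (89.3% identical). There Iglc1 differed from Iglc2 at 68 of 141 and from Iglc3 at 69 of 138. In windows of 90 bases, about as long as the sequenced read, Iglc2 and Iglc3 differed at a median of 3 bases and in 20 of 369 windows at 1 or none, whereas Iglc1 differed from either by at least 19. Values of Iglc2 and Iglc3 taken singly are therefore less certain than their sum or than Iglc1.

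Light-chain use was read in cells with at least 10 light-chain UMIs, of which there were 1017 KO-labelled and 3402 WT-labelled B cells. The kappa gene Igkc (ENSMUSG00000076609) was the most abundant member, with a median of 29 UMIs per KO-labelled and 23 per WT-labelled B cell, and with a UMI in 95.4% of the B cells of both libraries. A cell was called lambda or kappa where that type held at least 80% of its light-chain UMIs. Lambda cells numbered 56 under the KO label (5.51%, 4.19 to 7.09) and 188 under the WT label (5.53%, 4.78 to 6.35). The difference was -0.0198 percentage points with an interval from -1.58 to 1.73, so differences within that interval could not be seen at this depth.

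Kappa cells were 63.8% of the KO-labelled (60.8 to 66.8) and 55.9% of the WT-labelled B cells counted (54.2 to 57.5), a difference of 7.97 points (4.49 to 11.4). Cells in between, called mixed, made up 30.7% and 38.6%, a difference of -7.95 points (-11.2 to -4.58). The share of lambda UMIs within a cell had a median of 15.7% under the KO label and 18.2% under the WT label. Its distribution had a broad bulk below 50% and a small separate group at the top, with 46 KO-labelled and 157 WT-labelled cells at 90% or more. When the limit was moved to 50%, chosen after seeing the data, 8.85% and 9.85% of cells had mostly lambda UMIs, a difference of -0.998 points (-2.97 to 1.16). The limit between kappa and mixed cells lies inside the broad bulk, so both of these shares depend on where it is set. The kappa and mixed shares were not recounted at another limit. The part of the higher median Igkc under the KO label in their differences was not tested.

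**Figure D1:**
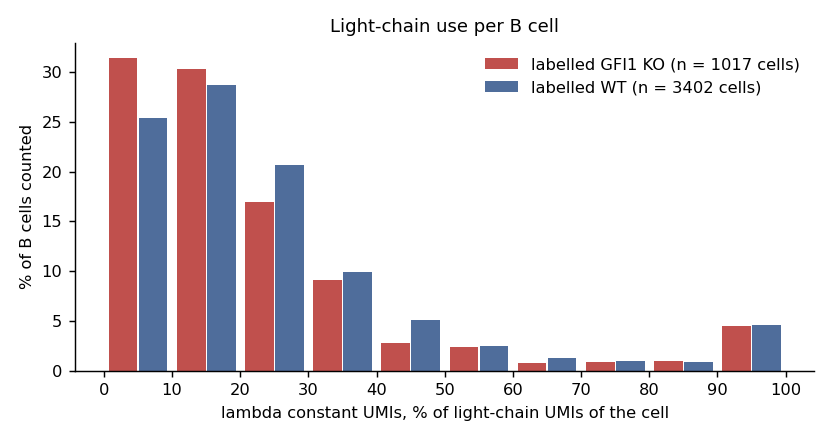
The x axis gives lambda constant UMIs (Iglc1, Iglc2 and Iglc3) as a percent of a cell's light-chain UMIs in steps of 10, and the y axis the percent of B cells counted, with 1017 cells under the KO label and 3402 under the WT label. In the highest step the bars reach 4.52% and 4.62%, and the bars from 0 to 20% are higher under the KO label while those from 20 to 80% are higher under the WT label.

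Kappa cells nevertheless carried lambda UMIs, few per cell but in most cells. Iglc3 had a UMI in 74.1% of KO-labelled and 67.4% of WT-labelled kappa cells, Iglc2 in 69.8% and 73.0%, and Iglc1, the gene whose sequence stands apart, in 27.3% and 25.9%. The median per kappa cell was 1 UMI for Iglc2 and for Iglc3 and 0 for Iglc1 in either library. T-like cells, named from 6 T cell genes and deeper than the B cells with medians of 6326 and 6014 UMIs, had 0 UMIs of any of the 3 genes in 702 KO-labelled cells, so that up to 0.427% of cells with a UMI is allowed by the count. Among WT-labelled T-like cells the shares were 0.167% for Iglc1, 0.670% for Iglc2 and 0.460% for Iglc3. In the opposite direction, 33.9% of KO-labelled and 32.5% of WT-labelled lambda cells had an Igkc UMI, against 5.27% and 9.21% of T-like cells.

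Lambda cells were led most often by Iglc1, then by Iglc2 and then by Iglc3 in both libraries, but the shares differed. Iglc1 held the most lambda UMIs in 41 of 56 KO-labelled lambda cells (73.2%) and in 101 of 188 WT-labelled ones (53.7%), a difference of 19.5 points (4.14 to 32.7). Iglc2 led in 12 (21.4%) and 70 (37.2%), a difference of -15.8 points (-28.1 to -1.07), and Iglc3 in 3 (5.36%) and 17 (9.04%), a difference of -3.69 points (-10.3 to 6.51). These intervals rest on few KO-labelled cells. Lambda cells led by Iglc1 had a median of 22 KO-labelled and 26 WT-labelled Iglc1 UMIs but 3 and 5 Iglc2 UMIs, and Iglc2-led cells had 30.5 and 28 Iglc2 UMIs but 2 and 3.5 Iglc1 UMIs. Iglv1, the variable segment that is known to join mostly Iglc1 and Iglc3, had 8 KO-labelled and 60 WT-labelled UMIs in the Iglc1-led cells and 1 or 2 UMIs in each of the other groups.

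Among the heavy-chain genes, Ighm (ENSMUSG00000076617) was found in nearly every B cell, with a UMI in 97.5% of KO-labelled and 99.1% of WT-labelled cells. Its median was 8 UMIs per KO-labelled and 10 per WT-labelled cell, with middle ranges (quartiles) of 5 to 12 and 6 to 17 that overlapped. Ighd (ENSMUSG00000104213) had a UMI in 79.6% and 82.9% of cells with a median of 2 UMIs in either library. The balance of the 2 was read in cells with at least 10 UMIs of Ighm and Ighd together, 633 under the KO label and 2539 under the WT label.

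Ighd held a median of 18.2% of these UMIs in KO-labelled cells and 17.7% in WT-labelled cells. The upper quartile was 30% and the 90th percentile was 41.7% in both libraries. More Ighd than Ighm was found in 18 KO-labelled cells (2.84%, 1.69 to 4.46) and 90 WT-labelled cells (3.55%, 2.86 to 4.34), a difference of -0.701 points (-2.10 to 1.05). No Ighd UMI was found in 15.0% and 14.5% of the cells counted, a difference of 0.514 points (-2.54 to 3.82). Both intervals include 0.

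Cells with a UMI of Fcer2a, which encodes CD23 and marks mature follicular B cells, had the higher Ighd share in both libraries. Their median was 21.4% in 321 KO-labelled cells and 22.2% in 1253 WT-labelled cells, against 12.7% in the 312 and 11.1% in the 1286 cells without a Fcer2a UMI. Median Ighd was 3 and 4 UMIs in the former and 2 in the latter of either library, while median Ighm was 11 and 12 against 13 and 16. The cells with Fcer2a were the deeper ones, with median depths of 4851 and 5231 UMIs against 4340 and 5034, and the part of depth in this difference was not tested.

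**Figure D2:**
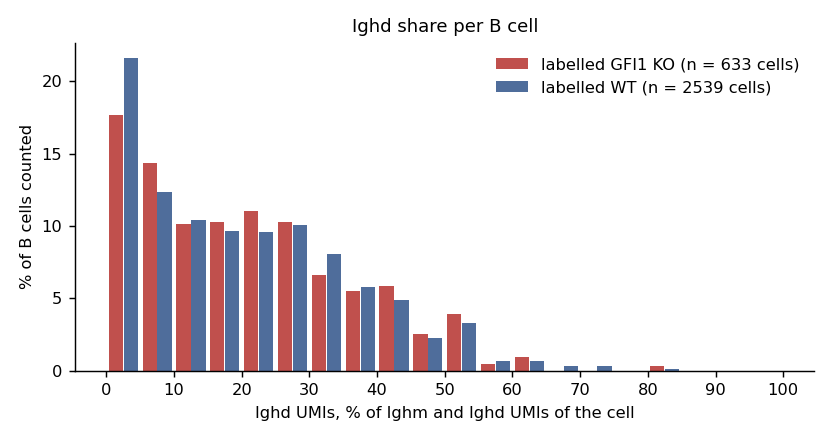
The x axis gives Ighd as a percent of a cell's Ighm and Ighd UMIs in steps of 5, and the y axis the percent of B cells counted, 633 under the KO label and 2539 under the WT label. The lowest step holds 17.7% and 21.6% of cells, and both distributions thin out above 55%.

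Switched isotypes were rare in both libraries. They were counted in B cells and plasma-type cells (at least 4 of Mzb1, Tnfrsf17, Derl3, Prdm1, Sdc1 and Xbp1 with a UMI) with at least 10 heavy-chain constant UMIs, and a cell was called switched where Igha, Ighe and the Ighg genes held at least 50% of them. Switched cells were 5 of 641 under the KO label (0.780%, 0.254 to 1.81) and 16 of 2560 under the WT label (0.625%, 0.358 to 1.01), a difference of 0.155 points (-0.499 to 1.22). Igha led in 1 KO-labelled cell and in 10 WT-labelled cells, of which 7 were plasma-type. The Ighg genes led in 4 KO-labelled cells (1 Ighg1, 1 Ighg2b and 2 Ighg3) and 6 WT-labelled cells (5 Ighg2b and 1 Ighg3), a difference in share of 0.390 points (-0.141 to 1.37). Ighe, the IgE constant gene, had 0 UMIs in the B cells of either library, which allows up to 0.468% of the KO-labelled and 0.117% of the WT-labelled cells counted to have a UMI. This limit is on cells with a UMI and not on cells that express the gene.

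Among the 8 members Jchain (ENSMUSG00000067149) differed most between the libraries. It had 8 UMIs over all KO-labelled cells, never more than 1 per cell, and 6780 over all WT-labelled cells. Cells with at least 10 Jchain UMIs, a limit chosen after seeing the data, were 0 of 10495 under the KO label (up to 0.0286% is allowed by a count of 0) and 20 of 19342 under the WT label (0.103%, 0.0632 to 0.160), a difference of -0.103 points (-0.160 to -0.0500). Among B cells they were 0 of 1059, which allows up to 0.283%, and 18 of 3624 (0.497%), a difference of -0.497 points (-0.784 to -0.0945). Those 20 cells held 97.1% of all Jchain UMIs of the WT-labelled library, 95.6% of its Igha, 36.0% of its Igkc and 24.0% of its Ighm.

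The 20 cells divided by heavy chain into 9 led by Igha and 11 led by Ighm. The Igha-led cells had 11 to 986 Jchain UMIs with a median of 241, and 69 to 2319 Igha UMIs with a median of 570. All 9 had more Igkc than lambda UMIs, with a median of 1550 Igkc UMIs. The Ighm-led cells had 12 to 957 Jchain UMIs with a median of 238 and 64 to 3637 Ighm UMIs with a median of 1733. Lambda outweighed Igkc in 2 of them, 1 with 3135 Iglc3 UMIs and 1 with 658 Iglc1 UMIs. Immunoglobulin genes and Jchain together took 3.45% to 42% of the UMIs of the Igha-led cells (median 11.1%) and 1.22% to 69.8% of the Ighm-led cells (median 36.8%), against a median of 0.947% in WT-labelled and 1.13% in KO-labelled B cells that were not plasma-type.

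By the plasma-type genes alone, 4 KO-labelled and 30 WT-labelled cells were counted. The 4 KO-labelled cells had 14254 to 25501 gene UMIs, 0 Jchain UMIs and 0.133% to 2.52% of UMIs from immunoglobulin genes, and the doublet caller Scrublet marked 3 of them. Of the 30 WT-labelled cells, 14 had at least 10 Jchain UMIs and 7 were marked as doublets. Those of the 30 below 10 Jchain UMIs had at most 1, with 0.139% to 2.41% of UMIs from immunoglobulin genes. That range is close to the range of the 4 KO-labelled cells. Among the 20 cells with at least 10 Jchain UMIs, 3 were marked. The small number of such cells and the lower share of B cells under the KO label limit what can be seen there.

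**Figure D3:**
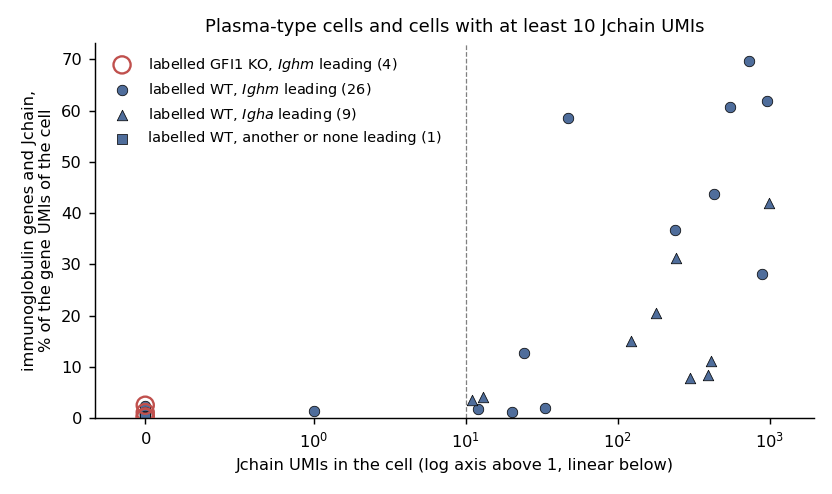
Each point is 1 cell that is plasma-type or has at least 10 Jchain UMIs, with its Jchain UMIs on the x axis (log scale above 1, dashed line at 10) and the percent of its gene UMIs from immunoglobulin genes and Jchain on the y axis. The 4 KO-labelled cells sit at 0 Jchain and at or below 2.52%, and the 20 WT-labelled cells right of the line reach 986 Jchain UMIs and 69.8%.

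Summed over all B cells, the 6 members other than Igha and Jchain differed by less than 1.5-fold in CPM between the libraries. Igkc reached 7707 CPM (7627 to 7788) in KO-labelled and 9015 CPM (8971 to 9058) in WT-labelled B cells, a ratio of KO to WT of 0.855 (0.845 to 0.865). Ighm was found at 2559 and 3673 CPM (ratio 0.697, 0.683 to 0.711), and Ighd at 579 CPM in both, a ratio of 1.00 (0.958 to 1.04). Counted per B cell, the Ighm ratio was 0.590 (0.579 to 0.602), and 0.757 (0.742 to 0.772) without plasma-type cells. The Ighm CPM passed 1.5-fold with a looser B cell rule of 2 markers and with free RNA subtracted (log2 ratios -0.70 and -0.59). The 2-marker rule lowered the ratio of every member, with Ighd at -0.16, and took in a WT-labelled cell of 1340 Ighm UMIs. Other cells, the source of the free RNA value, held 0.760 and 0.493 Ighm UMIs per cell. Whether these were their own RNA was not tested. A single WT-labelled plasma-type cell held both 9.63% of the Igkc and 5.39% of the Ighm UMIs of the WT-labelled B cells. Without plasma-type cells the order of Igkc turned, with 7703 CPM in KO-labelled and 5940 in WT-labelled cells (ratio 1.297, 1.28 to 1.31), while the Ighm ratio was 0.882 (0.864 to 0.900) and the Ighd ratio 0.981 (0.939 to 1.02).

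The 3 lambda genes did not share a direction. Iglc1 was at 715 and 725 CPM, a ratio of 0.987 (0.950 to 1.03), which became 1.31 (1.26 to 1.36) without plasma-type cells. Iglc2 was at 915 and 1015 CPM (ratio 0.901, 0.871 to 0.932) and Iglc3 at 697 and 505 CPM (ratio 1.38, 1.32 to 1.44). A single KO-labelled cell with no Igkc UMI held 361 Iglc3 UMIs, 11.4% of that library's Iglc3 in B cells, and without the top cell of each library, left out after seeing the data, the Iglc3 ratio was 1.23. Summed over the near-identical pair Iglc2 and Iglc3, the ratio was 1.06 (1.03 to 1.09), a sum added after seeing the data.

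Igha and Jchain were the lower members under the KO label. Igha (ENSMUSG00000095079) had 48 UMIs in KO-labelled B cells (10.6 CPM, 7.78 to 14.0) and 6157 in WT-labelled B cells (335 CPM, 327 to 344), which made it 31.8-fold higher under the WT label (23.9 to 43.1). Jchain had 3 UMIs and 6345 UMIs, a ratio of KO to WT of 0.00191 (0.000394 to 0.00558). With plasma-type cells left out, the ratios were 0.631 (0.445 to 0.877) for Igha and 0.0869 (0.0177 to 0.259) for Jchain. With only the B cells of 10 or more Jchain UMIs left out, 48 KO-labelled Igha UMIs stood against 114 WT-labelled ones, a ratio of 1.67 (1.17 to 2.36), and 3 Jchain UMIs against 49, a ratio of 0.243 (0.0484 to 0.752). The lower Igha under the KO label was thus carried by the 18 B cells with much Jchain.

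All 8 members passed the minimum of 30 UMIs over both libraries, Jchain only through the WT-labelled one. At 1.5-fold, 0 members were higher and 2 were lower under the KO label, against 5.59% of the 12443 genes tested that were higher and 14.6% that were lower. Without plasma-type cells the same members were counted, 0 higher and 2 lower, against 5.52% and 14.3% of 12370 genes. Without the B cells of 10 or more Jchain UMIs, 1 member was higher and 1 lower, against 5.52% and 14.2% of 12412 genes. That limit was set after seeing the data and on a member itself. It left out 18 WT-labelled and 0 KO-labelled B cells, so it could only lower the WT-labelled UMIs of the members. The median log2 ratio of the members turned sign over these 3 sets, at -0.19, -0.08 and 0.15, beside -0.06, -0.07 and -0.07 for all genes tested.

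**Figure D4:**
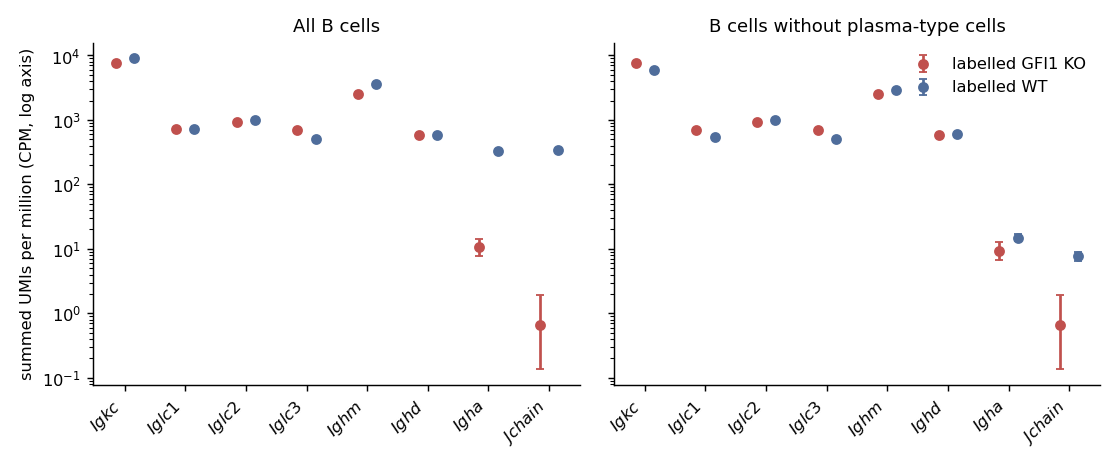
The y axis gives the summed level of each member in CPM on a log scale, for all B cells on the left and without plasma-type cells on the right, with 1 point per library and 95% counting intervals that are mostly smaller than the points. Igkc changes order between the panels, and Igha and Jchain lie far apart on the left, at 10.6 against 335 CPM and 0.659 against 345 CPM.

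Outside B cells, most members were close to 0. Over 9436 KO-labelled and 15717 WT-labelled other cells, Igkc had 0.0361 and 0.196 UMIs per cell, a ratio of KO to WT of 0.185 (0.165 to 0.207). Ighd had 0.00615 and 0.0121 UMIs per cell, and Jchain 0.000530 and 0.0125. A single WT-labelled cell with 2 B cell genes held 1340 Ighm, 604 Igkc and 47 Jchain UMIs, and without it Igkc was at 0.157 UMIs per WT-labelled cell. The library with more B cells and with the Jchain-rich cells thus also had more Igkc in other cells, and the part of free RNA in this was not tested.

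Ighm did not follow Igkc. It had 0.760 UMIs per other cell under the KO label and 0.493 under the WT label (0.408 without the cell just named), which was more than Igkc in either. Monocyte-like cells were 3923 of the 9436 KO-labelled and 632 of the 15717 WT-labelled other cells. They held 4638 of 7174 and 508 of 7744 Ighm UMIs, so the pooled values weigh the classes differently in the 2 libraries. In B cells there were 0.332 and 0.407 Ighm UMIs per Igkc UMI. Alveolar macrophage-like cells had 0.514 and 0.526, T-like cells 8.35 and 8.47, and monocyte-like cells 37.7 and 6.68 Ighm UMIs per Igkc UMI. Under the KO label the intervals of these 3 classes did not overlap (0.336 to 0.774, 6.30 to 11.3 and 31.5 to 45.5), and under the WT label that of alveolar macrophage-like cells (0.462 to 0.599) lay below the other two (7.48 to 9.63 and 5.24 to 8.62). Whether the Ighm UMIs of these cells are their own RNA was not tested.

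The classes were looked at again in cells with 0 of the 6 B cell genes, a set chosen after seeing the data. Monocyte-like cells, named like the other classes from at least 3 of 6 marker genes, had 1.14 Ighm UMIs per cell (1.11 to 1.18) in 3288 KO-labelled cells and 0.744 (0.670 to 0.824) in 496 WT-labelled cells. T-like cells had 0.619 (0.559 to 0.682) and 0.957 (0.916 to 0.999), the opposite order. In NK-like cells the levels were 0.488 and 0.210, and in alveolar macrophage-like cells, which were the deeper cells with medians of 13213 and 13586 UMIs, just 0.0142 and 0.0940. Ighm thus spanned a wide range between classes, wider under the KO label. Igkc in the same cells stayed at 0.0289 and 0.117 per monocyte-like, 0.0605 and 0.114 per T-like, 0.0239 and 0.0820 per NK-like and 0.0301 and 0.181 per alveolar macrophage-like cell. Split by antibody tags, also after seeing the data, T-like cells with more CD4 than CD8a tag had 0.805 and 0.942 Ighm UMIs per cell and those with more CD8a tag 0.588 and 0.974.

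Plasmacytoid dendritic-like cells, a class of interferon-producing dendritic cells named here from Siglech, Ccr9 and 4 further genes, held Ighm and Iglc3 together. With the same limit, 7 KO-labelled cells had 7.43 Ighm (5.55 to 9.74) and 3.71 Iglc3 UMIs per cell (2.43 to 5.44), and 86 WT-labelled cells had 6.63 (6.10 to 7.20) and 4.38 (3.95 to 4.85). Igkc was at 0 UMIs in the former, where 3 counts would be 0.429 UMIs per cell, and at 3.06 per cell in the latter, where 34.9% of cells had a UMI. Over all 11 and 107 such cells, Igkc was at 0.818 and 2.67 UMIs per cell, with a UMI in 18.2% and 32.7%. In the same 11 and 107 cells, Iglc1 was at 0 and 0.0374 UMIs per cell, Iglc2 at 0 and 0.701, and the B cell gene Cd79a at 0 and 0.0187. In CPM, Ighm was at 962 and 977 and Iglc3 at 645 and 657, beside an Iglc3 level of 697 and 505 in the B cells of the same libraries.

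**Figure D5:**
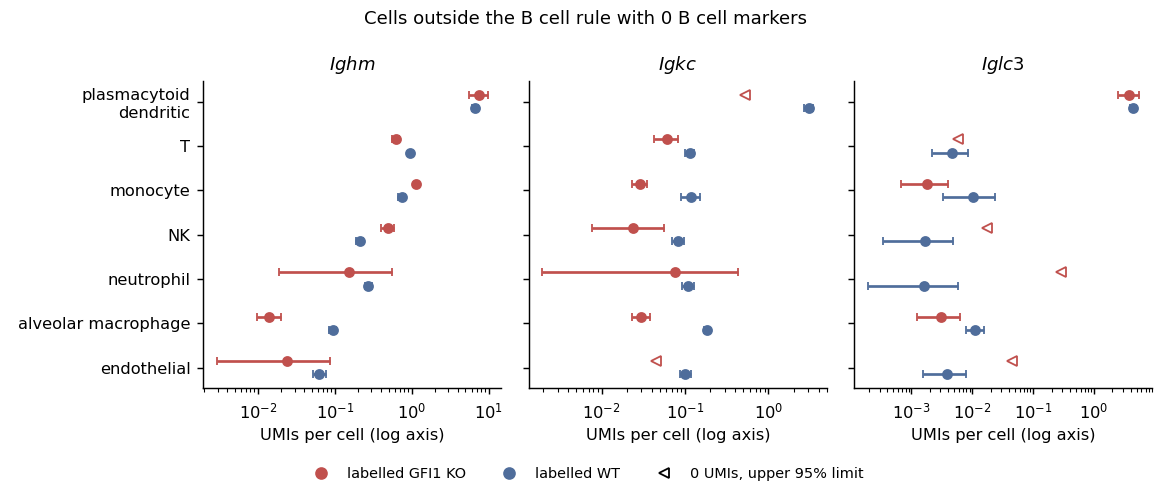
The x axes give UMIs per cell on a log scale for Ighm, Igkc and Iglc3 in 7 classes of other cells with 0 B cell genes, with 1 point per library, 95% counting intervals and open triangles at the upper Poisson limit where no UMI was counted. Plasmacytoid dendritic-like cells lie highest for Ighm and Iglc3, and T-like and monocyte-like cells show opposite orders of the libraries for Ighm.

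The variable segments, which 3′ reads reach rarely, were counted as sums. In B cells the Igkv segments had 287 KO-labelled and 1598 WT-labelled UMIs (ratio of CPM 0.725), the Ighv segments 146 and 591 (0.998) and the Iglv segments 53 and 287 (0.746). Without plasma-type cells the ratios were 1.00, 1.27 and 1.38. The Igkv ratio thus moved up without these cells, as the Igkc ratio did.

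Other genes of the pathway were counted by list at the same 1.5-fold. Of all genes tested in B cells, 5.59% were past it upward and 14.6% downward under the KO label. Of 13 genes of B cell receptor signalling, 0 were past 1.5-fold in either direction. The signalling partners of the receptor, Cd79a and Cd79b, were at ratios of 1.24 and 1.26. Cd79a, Cd79b and Bank1 also serve the B cell rule, which partly fixes their presence in these cells. The complement receptor gene Cr2 was at 0.684 and just inside the limit. Of 3 octamer factor genes, which act on immunoglobulin promoters, 0 were past it, with Pou2f2 at 1.10, its partner Pou2af1 at 0.965 and Pou2f1 at 0.77 (0.71 to 0.84). Pou2f1 had a UMI in 36.26% of KO-labelled and 46.55% of WT-labelled B cells. A list of 3 genes is too short to set against the shares over all genes.

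Of 10 secretion genes, 4 were lower and 0 higher under the KO label, beside 14.6% and 5.59% of all genes tested. These were Prdm1, the plasma cell regulator, at 0.644, Tnfrsf17, a survival receptor, with 0 against 46 UMIs, Derl3, of the endoplasmic reticulum, at 0.265 (12 against 183 UMIs), and Pigr, the carrier of polymeric antibody, at 0.621. Xbp1, which drives the secretory apparatus, was at 1.15. Tnfrsf17, Derl3 and Pigr passed the minimum of 30 UMIs only through the WT-labelled library, and the interval of Pigr (0.255 to 1.32, 8 against 52 UMIs) includes 1. Without plasma-type cells Pigr alone of the 9 genes tested was lower and 0 were higher, and 6 of the 10 genes also serve the plasma-type rule. Of 12 genes that differ between B cell subsets, Apoe was higher at 1.99 and 4 were lower. The 4 were Cd5 at 0.198 (10 against 204 UMIs), Zbtb32 at 0.358, Bhlhe41 at 0.535 and Cd9 at 0.550. The counts were the same without plasma-type cells. Cd5 passed the minimum of 30 UMIs only through the WT-labelled library. It had a UMI in 0.850% of KO-labelled and 3.28% of WT-labelled B cells, close to the T cell gene Cd3e (0.661% and 3.06%). Whether the Cd5, Cd9 and Apoe UMIs were RNA of the B cells themselves was not tested.

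Constant genes outside the 8 members had few UMIs. Of the 4 tested, Ighg1 was higher under the KO label with 30 UMIs against 26 (ratio 4.66, 2.66 to 8.20), and without plasma-type cells 30 stood against 2. Of the 2 libraries, only the KO-labelled one reached the minimum of 30 UMIs for Ighg1 by itself. Over all genes tested, 5.59% were higher and 14.6% lower, and 4 genes are too few to set against these shares. The Ighg1 UMIs came from 5 KO-labelled cells and 2 WT-labelled cells, of which 1 held 24 of the 26. Without plasma-type cells Ighg2b was also higher at 1.57 and Iglc4 lower at 0.529 (4 against 30 UMIs, 0.136 to 1.502). Iglc4 passed the minimum only through the WT-labelled library. The Ighg2b value came from 15 KO-labelled and 19 WT-labelled cells, and 1 WT-labelled cell held 47 of 162 UMIs. In that set 5.52% of all genes tested were higher and 14.3% lower. In the list for the surrogate light chain and recombination, Vpreb3 was at 1.297, with a UMI in 42.1% of KO-labelled and 41.1% of WT-labelled B cells. Below the minimum for testing, Rag1 had 16 against 5 UMIs (3.52 and 0.272 CPM) and Dntt 0 against 17 (0 and 0.925 CPM).

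Genes whose level followed a member most closely from cell to cell were ranked by the lower of the 2 libraries' correlations over 1059 and 3624 B cells, as a description only. Cd74, the chaperone of antigen-presenting molecules, came first for Igkc with r of 0.411 under the KO label and 0.322 under the WT label. Cd79b came first for Iglc2 (0.303 and 0.302), Iglc3 (0.332 and 0.244) and Ighm (0.387 and 0.357), and Satb1, a chromatin organizer, for Ighd (0.330 and 0.357). Agbl1 came first for Iglc1 (0.349 and 0.353). For Igha and Jchain, which few cells held, Dnm3 (0.390 and 0.379) and Rhobtb1 (0.195 and 0.291) came first. Cells of 1 library share its depth and composition, and weak values in sparse counts are no finding.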

How the data were processed

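Single-cell RNA sequencing of live lung cells was analysed for 1 library per label. For each library the authors deposited a matrix of raw counts (UMIs of each gene and antibody tag in each called cell) without normalization; the submitters' processing notes name Cell Ranger 9.0.1 and the GRCm39 (mm39) build. Gene annotation, the counting of intronic reads and any removal of free RNA are not given in the sources used here. The 18 antibody tags were kept apart from the 33696 genes.

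Cells were kept with at least 500 UMIs, at least 200 genes and at most 20% mitochondrial UMIs (left out were 205 under the KO label, 173 under the WT label). Also left out were 9538 ribosomal, mitochondrial and Gm- genes, which held 18.9% and 16.4% of the UMIs. Doublets were kept. Scrublet marked 3.30% and 5.88% of cells, and 8.59% and 10.1% of B cells, and their removal is an alternative. Levels in CPM are a class's summed UMIs of a gene over its summed UMIs of all genes left. Shares carry exact Clopper-Pearson intervals, levels exact Poisson intervals, ratios exact conditional binomial intervals and differences of shares square-and-add intervals. A count of 0 was given a limit of 3 counts. For shares at equal depth each cell was thinned to 1500 UMIs with a fixed seed. Genes with at least 30 UMIs over both libraries were compared at 1.5-fold, with no test. Each other cell was put in a class where at least 3 of that class's 6 markers, and fewer than 3 of every other list, had a UMI; 2097 and 2785 cells fell in none. Named were the 8 members, the listed pathway genes and, per member, the 3 genes outside the immunoglobulin loci with the highest Pearson r of ln(1 + UMIs per 10000) among genes seen in at least 1% of B cells. Python 3.11.15, numpy 2.4.6, scipy 1.17.1, pandas 2.3.3 and scanpy 1.11.5 were used, and the scripts were tested on simulated data. The members and the gene lists were chosen with earlier results of these data known. Some genes and 1 antibody tag are not reported here.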

Additional observations from a re-analysis of the deposited data

Results flagged for a closer look

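The order of the 2 libraries for Ighm differed between classes of other cells. Ighm UMIs per cell under the KO label over those under the WT label were 0.666 (0.601 to 0.736) in T-like cells, 2.42 (1.95 to 2.99) in NK-like cells and 1.47 (1.34 to 1.62) in monocyte-like cells. Ratios of CPM had the same order, at 0.665, 1.73 and 1.24. The median depth was 6326 and 6014 UMIs in T-like, 5650 and 4177 in NK-like and 11370 and 8819 in monocyte-like cells under the KO and WT labels. Igkc had the same direction in all 3 classes, with per-cell ratios of 0.676, 0.344 and 0.261. With 1 library per label the difference between classes was not tested.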

How the results depend on the processing

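Log2 ratios are of KO over WT. No paired analysis was possible because the labels give 1 library per genotype, and no library could be left out in turn. The difference in lambda share moved by less than its counting interval under all 12 alternatives (-0.998 to 0.466 points), and so did the share of cells with more Ighd than Ighm under all 8 (-1.03 to 0.573 points). The B cell share difference was -7.18 points with cells of mixed lineage left out, the only one of 6 alternatives to move it beyond its counting interval. The switched share difference was -0.766 points (-2.74 to 5.54) in thinned cells. With a minimum of 5 heavy-chain UMIs it was 1.27 points (0.476 to 2.33), an interval that leaves out 0. The switched share difference thus depended on the minimum chosen.

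The count of members past 1.5-fold was 1 higher (Iglc1) and 0 lower in thinned cells, and 1 higher (Igha) and 1 lower without B cells of at least 10 Jchain UMIs. With at least 2 markers and with free RNA subtracted it was 3 lower, since Ighm passed the limit there at -0.70 and -0.59. The log2 ratio of Igkc, -0.23 over all B cells, was 0.16 with at least 4 markers, 0.064 without mixed-lineage cells, 0.43 thinned, 0.30 as a mean over cells, 0.37 without plasma-type cells and 0.40 without cells of at least 10 Jchain UMIs. The last setting was chosen after seeing the data. Iglc2 was at -0.15 over all B cells, at 0.043 thinned and between -0.31 and -0.01 under the other alternatives. Igha was at -4.99 over all B cells, at 0.74 without cells of at least 10 Jchain UMIs, -0.30 thinned, -0.66 without plasma-type cells and between -5.15 and -2.26 under the others. Ighm was negative under all 12 alternatives (-0.70 to -0.08). The B cell rule was applied anew to thinned cells and left 985 KO-labelled and 3379 WT-labelled B cells. In these, Jchain had too few UMIs for a value. Of the cells called B before thinning, 0 of 1046 KO-labelled and 29 of 3607 WT-labelled ones still had a Jchain UMI. The thinned values thus do not cover the same set of B cells as the main ones. Igkc per other cell, -2.44, was -2.10 and -2.11 with 2 and 4 markers as the limit, -2.22 without mixed-lineage cells, -3.14 thinned, -2.79 as CPM and -2.07 as a share of thinned cells. Apart from the alternative's own construction, the causes were not tested.

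Values of Igha, Jchain and the switched isotypes rest on few counts under the KO label, with 48 and 3 UMIs in B cells and 5 switched cells. CPM of Igkc was also higher in the shallower B cells of each library, at 10743 against 6512 under the KO label and 7751 against 5284 under the WT label, plasma-type cells left out.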
